A study of Mus musculus with 4 samples.

Results

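Interferon-stimulated genes are the genes that a cell switches on when an interferon binds its receptor. A list of 39 such genes was followed in single-cell RNA-seq data of mouse pancreatic islets, by gene symbol, across the islet cell classes and 4 libraries. Of the 39 genes, 38 had a row among the 32285 genes of the matrices, and Mx1 is not analysed here.

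Islets came from male littermates of C57BL6/N background, either wildtype (WT) or homozygous for the R192H knock-in allele of Pax4 (HH), a transcription factor needed for making β cells during development. Mice had a standard chow diet (SCD) and were 12 weeks old, or had a high-fat diet (HFD) for 4 weeks and were 16 weeks old. The groups are called WT SCD, HH SCD, WT HFD and HH HFD, and each was 1 library of islets pooled from several mice. Library and genotype therefore cannot be told apart, nor can diet and age, so no p-values are given, and every interval below is at 95% and covers counting error only.

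Type I interferons signal through the IFNAR receptor and JAK kinases to a transcription factor complex with STAT2 and IRF9, which binds interferon-stimulated response elements. Type II interferon, made by T and NK cells, acts on a different element, the gamma-activated site. The products sense viral RNA, block translation, mark proteins with ISG15, recruit T cells through chemokines and restrict pathogens, and in islets this response is best known from the insulitis of type 1 diabetes.

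The response element can be read in the promoters themselves, and 5 are shown because the levels of these genes carry the results below. They are the bases before the RefSeq transcription start (build GRCm38.p6), written 5′ to 3′ on the strand of the gene and cut where they reached the annotated gene. Capitals mark GAAANNGAAA on either strand, the core of the interferon-stimulated response element, or TTCNNNGAA, the core of the gamma-activated site, which reads the same on both strands. Ifit1 (chr19:34640639-34640870 on the + strand) and Ifit3 (chr19:34583279-34583528 on the + strand) code for RNA-binding inhibitors of translation. Isg15 (chr4:156200819-156201068 on the - strand) codes for a ubiquitin-like modifier, Cxcl10 (chr5:92348890-92349139 on the - strand) for a T cell chemokine, and Irf1 (chr11:53769764-53770013 on the + strand) for a transcription factor.
Ifit1: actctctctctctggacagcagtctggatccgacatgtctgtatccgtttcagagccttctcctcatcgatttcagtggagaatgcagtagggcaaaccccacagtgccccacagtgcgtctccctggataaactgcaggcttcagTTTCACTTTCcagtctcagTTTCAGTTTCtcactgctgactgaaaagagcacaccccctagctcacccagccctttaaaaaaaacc
Ifit3: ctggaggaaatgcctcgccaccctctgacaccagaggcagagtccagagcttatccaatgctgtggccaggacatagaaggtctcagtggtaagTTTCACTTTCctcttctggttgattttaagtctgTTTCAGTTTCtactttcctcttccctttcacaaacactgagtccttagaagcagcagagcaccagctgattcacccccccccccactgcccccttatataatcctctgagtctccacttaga
Isg15: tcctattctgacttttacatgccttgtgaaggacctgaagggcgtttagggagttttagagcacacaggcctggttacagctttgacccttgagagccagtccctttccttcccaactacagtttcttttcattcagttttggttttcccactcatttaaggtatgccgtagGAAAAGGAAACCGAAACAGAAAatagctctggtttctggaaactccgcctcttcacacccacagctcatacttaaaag
Cxcl10: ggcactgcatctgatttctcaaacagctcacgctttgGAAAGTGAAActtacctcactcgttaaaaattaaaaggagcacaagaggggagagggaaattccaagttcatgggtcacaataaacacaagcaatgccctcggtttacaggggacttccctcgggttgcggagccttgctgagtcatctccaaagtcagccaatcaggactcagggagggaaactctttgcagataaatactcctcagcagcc
Irf1: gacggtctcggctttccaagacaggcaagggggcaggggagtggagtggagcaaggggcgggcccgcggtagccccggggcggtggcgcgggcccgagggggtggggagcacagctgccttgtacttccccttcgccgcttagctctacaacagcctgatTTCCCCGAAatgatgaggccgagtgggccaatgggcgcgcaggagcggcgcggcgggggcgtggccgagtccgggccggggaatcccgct

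Ifit1 held the response element core 2 times, beginning 104 and 85 bases before the start, and Ifit3 held it 2 times, at 156 and 122 bases. Isg15 had 3 overlapping matches between 78 and 66 bases before the start, and Cxcl10 had 1 at 213 bases. Irf1 had the gamma-activated core at 90 bases and no response element core. The RefSeq promoter table, with 250 bases before and 50 after each start, matched 31 of the 39 genes; Oas2, Dhx58, Zbp1, Usp18, Mx1, Iigp1, Rtp4 and Parp14 were not matched. GAAANNGAAA stood in 20 of the 31 (64.5%), against 3.99% of the 27018 genes of the table. TTCNNNGAA stood in 8 of the 31 (25.8%), against 9.55% of all genes, and Oas1a, Igtp, Irgm2, Gbp7 and Bst2 held both. Lgals3bp, the most abundant member in β cells, held neither in its window. The genes also lie in groups in the genome, with Ifit1, Ifit2, Ifit3 and Ifit3b on chromosome 19, and Gbp2, Gbp3 and Gbp7 on chromosome 3. A further pair, Rsad2 and Cmpk2, lies side by side on chromosome 12. Ifit3 and Ifit3b are near-identical copies, so reads may be split between them and single values of both are uncertain. The Oas1, Irgm and Gbp genes have related copies, and Igtp and Irgm2 overlap in the annotation, so some of their reads may be shared too.

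The libraries held 4665 to 7123 barcodes and 68011082 to 104810105 unique molecular identifiers (UMIs), each UMI counting 1 captured RNA molecule. A filter on UMIs, genes and mitochondrial share kept 61.6% to 67.8% of barcodes in 3 libraries but 38.3% in WT HFD, and predicted doublets were then removed. Library pairs shared 6 to 11 barcodes. Clusters were named from marker genes with the interferon-stimulated genes left out of the clustering, and the kept cells included 2010, 1954, 1122 and 2759 β-like cells in WT SCD, HH SCD, WT HFD and HH HFD, the order used throughout. Endothelial-like cells numbered 127, 89, 146 and 192, and macrophage-like cells only 15, 8, 48 and 21. Pax4 had no UMI in any library, so its allele could not be read here.

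Levels are given as CPM, the UMIs of a gene per 1000000 UMIs of the cell class. In β-like cells the summed level of the 38 genes was 288 CPM (284 to 293) in WT SCD, 230 (226 to 234) in HH SCD, 303 (297 to 309) in WT HFD and 245 (241 to 249) in HH HFD. Both HH libraries thus lay below both WT libraries. Alpha-like cells had 533, 511, 598 and 558 CPM, δ-like cells 632, 697, 682 and 678, and PP-like cells 338, 343, 455 and 411. Endothelial-like cells had 4381, 3170, 4267 and 4716 CPM, and macrophage-like cells 9688, 5430, 6082 and 4795. Both non-endocrine classes lay far above the endocrine ones in each library, and in HH HFD they were nearly level with each other. Among the endocrine classes δ-like cells were highest and β-like cells lowest in each library on this scale.

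On the log2 scale the endothelial-like level exceeded the β-like level by 3.93, 3.78, 3.81 and 4.27. Ins1, Ins2, Iapp and mitochondrial genes made up 63.6% to 65.1% of β-like UMIs, and with them left out of the totals these differences were 2.56, 2.34, 2.39 and 2.81. For macrophage-like over β-like cells they were 5.07, 4.56, 4.33 and 4.29, or 3.68, 3.12, 2.89 and 2.85 without those genes. The order of the endocrine classes rests on this scale. With the hormones of all 4 endocrine classes and mitochondrial genes left out, a choice made after the data were seen, β-like cells had 795, 661, 856 and 706 CPM. Alpha-like cells then had 875, 837, 1036 and 963 CPM, δ-like cells 941, 1044, 986 and 1025, and PP-like cells 766, 779, 939 and 896, so the 4 classes lay close together and PP-like cells of WT SCD fell below β-like cells. The RNA background from other cells, estimated from hormones of other classes, was 0.679% to 1.93% of UMIs in β-like cells and 1.68% to 4.51% in δ-like cells.

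**Figure D1:**
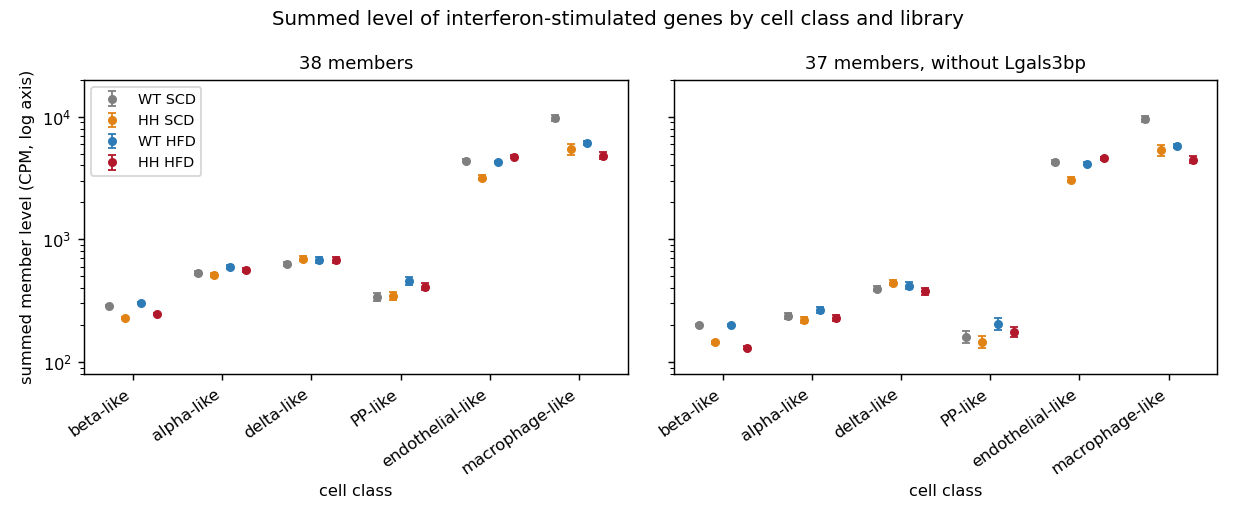
Summed level of the interferon-stimulated genes in CPM (log axis) in 6 cell classes, with 1 point per library and Poisson 95% intervals, for all 38 genes (left) and without Lgals3bp (right). Endothelial-like and macrophage-like cells lie above every endocrine class, and in β-like cells both HH points lie below both WT points.

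Lgals3bp, which codes for a secreted galectin-binding glycoprotein, made up 30.8%, 37.2%, 34.1% and 46.5% of the member UMIs in β-like cells. Its share was 55.6% to 59.4% in alpha-like cells and 2.6% to 3.49% in endothelial-like cells. The sum in endocrine cells is therefore to a large extent Lgals3bp. Without it the β-like sums were 199, 144, 200 and 131 CPM.

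By gene, δ-like cells had the highest CPM among the 4 endocrine classes in all 4 libraries for 19 of the 38 members. With the hormones of all 4 classes and mitochondrial genes left out of the totals 7 members were highest there, Ifit1, Dhx58, Zbp1, Isg15, Ifi35, Rtp4 and Parp14. β-like cells were highest in all 4 libraries for 2 members on the CPM scale, Rsad2, which codes for the antiviral enzyme viperin, and its neighbour Cmpk2, a mitochondrial nucleotide kinase. Without the hormones of all 4 classes they were highest for 5, these and Oasl2, Oas1a and Oas2. With only Ins1, Ins2, Iapp and mitochondrial genes left out, β-like cells were highest for 11 and δ-like cells for 5, so these counts rest on the totals used. Alpha-like cells were highest on both scales for Ifih1, the gene of the double-stranded RNA sensor MDA5, and for Lgals3bp. Ifih1 read 28.7 and 31.4 CPM in alpha-like cells of WT SCD and HH SCD, against 3.6 and 3.42 CPM in β-like cells. Among all 6 classes, endothelial-like cells were highest in every library for 10 members, among them Irf1, Iigp1 and Gbp7, and macrophage-like cells for 6, among them Isg15, Bst2 and Cxcl10.

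**Figure D2:**
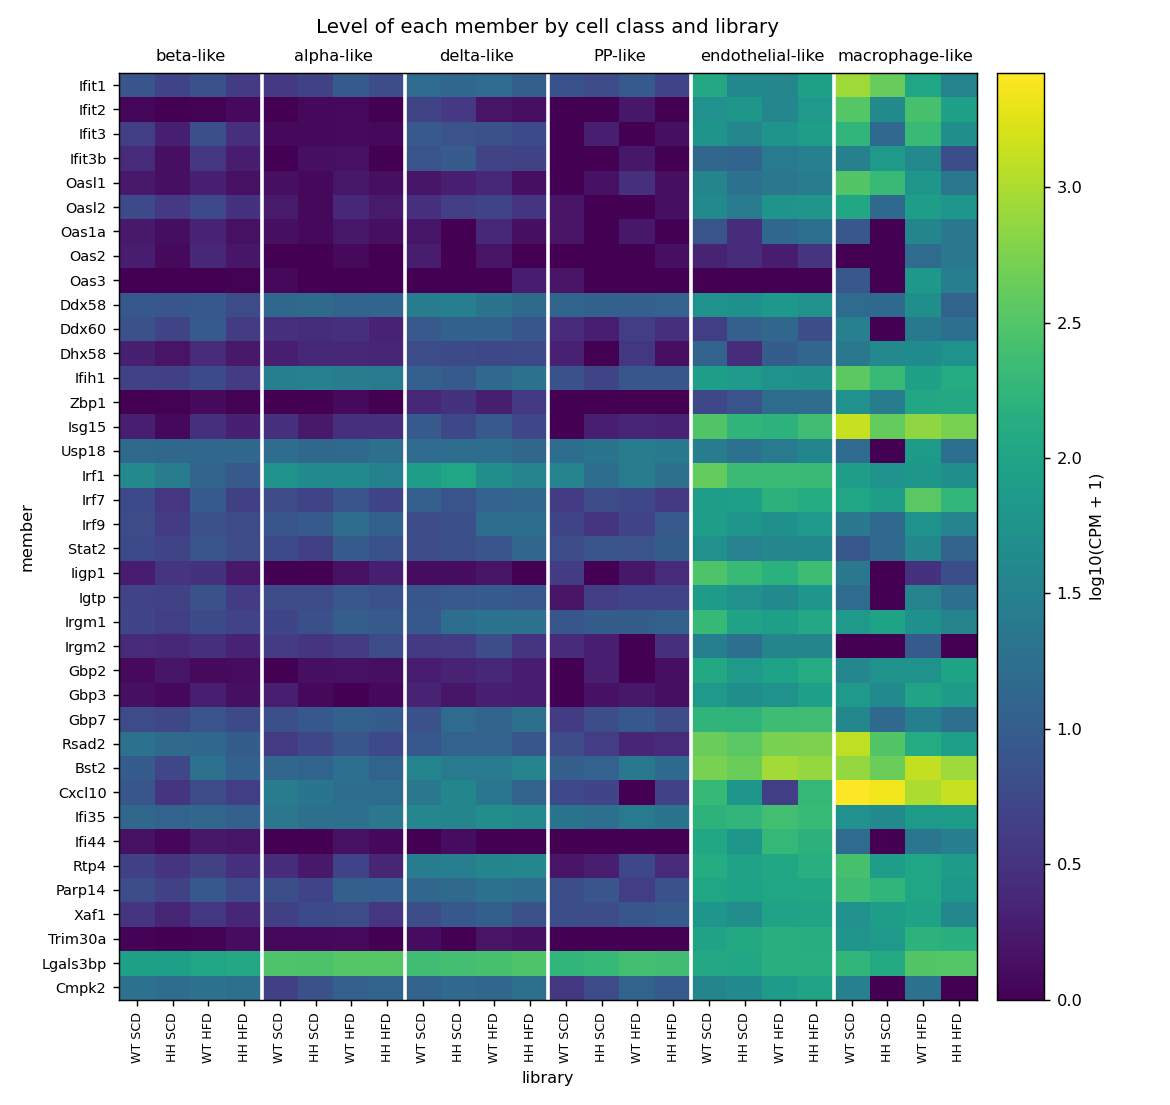
Level of each of the 38 genes as log10(CPM + 1) in 6 cell classes and 4 libraries (columns). The macrophage-like and endothelial-like columns are bright for most genes. Lgals3bp stands out in all 4 endocrine classes, with Irf1 next in some of their libraries.

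The first comparison was HH against WT in β-like cells. On SCD the summed level was lower in HH by a log2 ratio of -0.33 (-0.36 to -0.29), and on HFD by -0.31 (-0.34 to -0.27). Without Lgals3bp the ratios were -0.47 and -0.61. The median of all genes with enough UMIs itself lay at -0.09 on SCD and -0.14 on HFD, and the ratios are to be read against that shift. Most members lay below it, at a median of -0.58 on SCD and -0.75 on HFD.

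Members with at least 20 UMIs over both libraries were counted as lower or higher when past 1.5-fold. On SCD 17 of 34 such members were lower in HH, against 3.8% of 13602 genes, and 2 were higher, against 1.93%. On HFD 22 of 35 were lower, against 6.23% of 13629 genes, and 1 was higher, against 4.63%. With the counting interval also clear of 0, 16 were lower and 2 higher on SCD, against 1.87% and 0.728% of genes, and 22 lower and 1 higher on HFD, against 4.32% and 2.93%. Ratios below 0 were common among all genes too (72.6% on SCD and 71.8% on HFD), beside 32 of 34 and 31 of 35 members. Lower in both diets were 15 members, which is 15 of the 17 and 15 of the 22: Bst2, Cxcl10, Dhx58, Gbp3, Ifit1, Ifit3, Ifit3b, Irf7, Isg15, Oas1a, Oas2, Oasl1, Oasl2, Rtp4 and Xaf1. Of these 15, 12 had a promoter in the table and 8 of the 12 held GAAANNGAAA, beside 12 of 19 among the other members. The share of all genes lower in both diets is not given here, so the 15 have no background beside them.

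Among the IFIT genes, Ifit1 read 6.93, 3.83, 6.23 and 2.97 CPM, so that both HH libraries were lower than both WT libraries (log2 -0.86, -1.11 to -0.60, on SCD and -1.07, -1.35 to -0.78, on HFD). Ifit3 read 3.34, 1, 5.75 and 1.89 CPM in the same order of libraries (-1.74 and -1.61). Ifit3b, its near-identical copy, read 1.64, 0.385, 2.59 and 0.805 CPM (-2.10 and -1.69). Ifit2 had 6, 0, 2 and 14 UMIs, too few to compare.

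The OAS family includes the enzymes that make the oligoadenylates which activate RNase L. Oasl2 read 4.67, 2.73, 4.74 and 2.15 CPM (log2 HH over WT -0.77 on SCD and -1.14 on HFD). Summed over the 5 OAS genes the level was 6.96, 3.66, 8.29 and 3.63 CPM, with ratios of -0.93 (-1.19 to -0.67) and -1.19 (-1.44 to -0.94), again without overlap between the genotypes.

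Of the RNA sensing genes the 4 helicases Ddx58, Ddx60, Ifih1 and Dhx58 each had a ratio further below 0 on HFD than on SCD, a difference that was not tested. Ddx58, the gene of RIG-I, read 7.78, 7.16, 7.87 and 4.97 CPM, with ratios of -0.12 (-0.33 to 0.08) on SCD and -0.66 (-0.90 to -0.42) on HFD. Ddx60, a helicase that promotes RIG-I signalling, read 5.97, 4.04, 8.29 and 3.03 CPM (-0.56 and -1.45). For Ifih1 the values were 3.6, 3.42, 4.92 and 2.91 CPM (-0.07 and -0.76). Dhx58, the gene of LGP2, had 55, 27, 55 and 48 UMIs, or 1.02, 0.519, 1.64 and 0.702 CPM, with ratios of -0.97 (-1.69 to -0.28) and -1.22 (-1.81 to -0.64). For Ddx58 the HH HFD library stood low, and for Ifih1 the WT HFD library stood high.

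Isg15 was rare in β-like cells, with 52, 9, 63 and 67 UMIs, or 0.961, 0.173, 1.88 and 0.98 CPM. The HH over WT ratio was -2.47 (-3.68 to -1.44) on SCD and -0.94 (-1.46 to -0.42) on HFD. Usp18, which takes ISG15 off its targets, read 14.3, 12.9, 13 and 13.5 CPM, with ratios of -0.14 and 0.06, and so stayed within a narrow range while Isg15 did not.

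Of the transcription factors, Irf7, which amplifies the type I response, read 4.88, 2.48, 8.97 and 3.44 CPM (log2 HH over WT -0.97 on SCD and -1.38 on HFD). Irf9, which gives the complex with STAT2 its DNA binding, read 5.17, 2.89, 6.05 and 5.05 CPM (-0.84 and -0.26), and Stat2 4.9, 3.96, 7.06 and 5.05 CPM (-0.30 and -0.48). Irf1 read 39.2, 26.5, 11.4 and 7.94 CPM, with ratios of -0.56 and -0.52, just inside the fold. Irf1 was distinct in another respect: both SCD libraries were far above both HFD libraries.

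The interferon-inducible GTPases, which attack vacuoles of intracellular pathogens, were level between the genotypes on SCD in sum and lower in HH on HFD. Summed over 7 of them the level was 16.6, 15.9, 22.9 and 14.4 CPM, with ratios of -0.06 (-0.19 to 0.08) on SCD and -0.67 (-0.81 to -0.53) on HFD. Iigp1 went opposite ways in the 2 diets, reading 0.905, 2.23, 2.15 and 0.732 CPM (1.30, 0.81 to 1.81, and -1.55, -2.10 to -1.01). The 1% of cells with the highest member level, to which Iigp1 itself adds, held 81.6%, 81.9%, 87.5% and 50% of its UMIs. Without them its HFD ratio was 0.44 (-0.70 to 1.73). It and Gbp2, at 11, 28, 8 and 17 UMIs, were the 2 members higher in HH on SCD.

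Among the other effectors, Bst2, the gene of tetherin, which holds budding virus at the cell surface, read 9, 4.29, 17.9 and 10.7 CPM (log2 HH over WT -1.07 and -0.75). Cxcl10 read 7.15, 2.39, 5.22 and 3.26 CPM (-1.58 and -0.68). Some abundant members stayed inside the fold. Lgals3bp read 88.8, 85.7, 103 and 114 CPM (-0.05 and 0.14), Cmpk2 17.7, 15.9, 19.3 and 17.5 CPM (-0.16 and -0.14), and Rsad2 17.6, 14.2, 13.3 and 9.28 CPM (-0.31 and -0.52). Trim30a, the member higher in HH on HFD, rested on 2 and 20 UMIs.

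**Figure D3:**
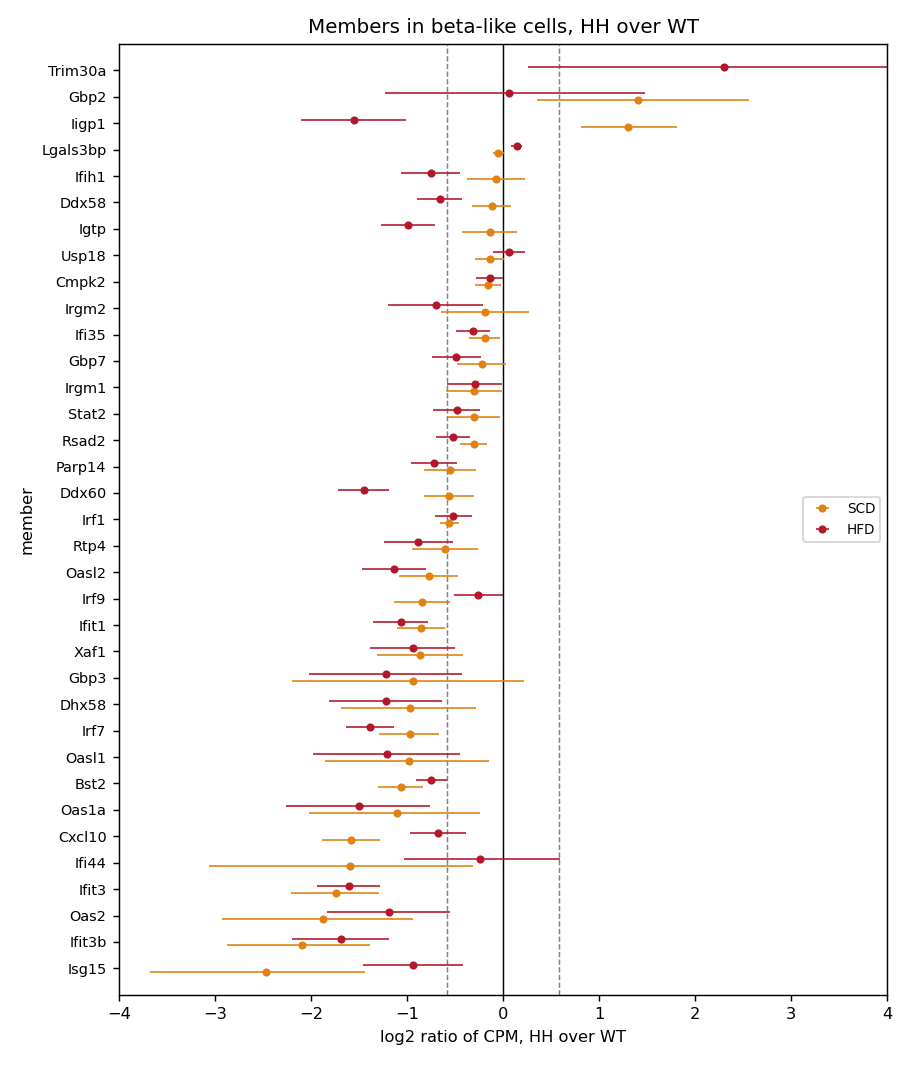
Log2 ratio of CPM, HH over WT, of each member with at least 20 UMIs in β-like cells, on SCD and on HFD, with 95% counting intervals. Dashed lines mark 1.5-fold, and most points lie left of 0, with Iigp1 and Gbp2 to the right on SCD.

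β-like cells fell into 5 clusters, and the libraries held these in very different shares. Clusters 0 and 2 held most SCD cells (1382, 961, 8 and 7 cells in cluster 0, and 421, 774, 34 and 20 in cluster 2). Cluster 11 held most WT HFD cells and many HH HFD cells (45, 70, 840 and 1131). Cluster 16, led by the endoplasmic reticulum genes Fkbp11, Derl3 and Creld2 and by Dapl1, was almost only HH HFD (6, 8, 26 and 1368). Cluster 1 was present in all libraries (156, 141, 214 and 233).

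The same ratios were then taken within the shared clusters. On SCD the summed ratio of HH over WT was -0.24 (-0.28 to -0.19) in cluster 0, -0.46 (-0.52 to -0.40) in cluster 2 and -0.20 (-0.32 to -0.08) in cluster 1. In cluster 0, 12 of 32 members were lower, against 3.5% of genes, and 2 were higher, against 1.79%. In cluster 2, 15 of 29 were lower, against 2.83%, and 0 were higher, against 2.88%. In cluster 1, 8 of 24 were lower, against 6.12%, and 4 were higher, against 4.61%.

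On HFD the ratio was 0.01 (-0.03 to 0.06) in cluster 11, at 271 CPM in HH and 268 in WT, and 0.03 (-0.06 to 0.11) in cluster 1. Without Lgals3bp these were -0.03 (-0.09 to 0.04) and -0.11 (-0.21 to -0.01). Of 33 members in cluster 11, 3 were lower in HH, Oas1a, Ddx60 and Igtp, against 3.46% of genes, and 3 were higher, Gbp3, Cxcl10 and Ifi44, against 2.84%. Cluster 1 had 8 of 31 lower, against 4.26%, and 2 higher, against 8.22%. The lower level on HFD was therefore not seen between the libraries within cluster 11, while cluster 16 had 202 CPM in HH HFD, and 87.7 CPM without Lgals3bp, beside 165 CPM without it in cluster 11 of the same library. The 26 cells of WT HFD in cluster 16 were not low, at 359 CPM (322 to 399), and 270 CPM without Lgals3bp. In cluster 16 Ifit1 read 1.19 CPM and Ifit3 0.181 CPM, against 4.76 and 3.46 CPM in cluster 11 of HH HFD and 4.89 and 3.84 CPM in cluster 11 of WT HFD. Bst2 read 4.63 CPM in cluster 16, against 16.6 and 15.4 CPM.

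Member by member in cluster 11, Ifit1 had a ratio of -0.04, Isg15 -0.23, Irf7 -0.40, Bst2 0.11 and Oasl2 0.01, each past 1.5-fold over all β-like cells on HFD and inside it here. On SCD Ifit3 was lower in all 3 shared clusters (-1.12 in cluster 0, -2.90 in cluster 2 and -1.11 in cluster 1). Bst2 was lower in both large clusters (-1.08 and -1.50) but higher in cluster 1 (1.10, 0.10 to 2.16), and Irf7 likewise had -0.74 and -1.59 there but 0.47 (-0.70 to 1.66) in cluster 1. Cxcl10 had -0.17 in cluster 0, -4.02 in cluster 2 and -0.74 in cluster 1.

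The members were also unevenly spread over single cells. After thinning each cell to 3000 UMIs, 90 of 2010, 62 of 1954, 42 of 1122 and 81 of 2759 β-like cells had UMIs of 3 or more distinct members, which is 4.48%, 3.17%, 3.74% and 2.94%. Without thinning the shares were 79.1%, 72%, 76.2% and 60.2%. HH minus WT was -1.30 percentage points (-2.54 to -0.08) on SCD and -0.81 (-2.22 to 0.44) on HFD. These counts depend on the random draw of the thinning. Over 100 draws, added after the data were seen, the mean shares were 4.22%, 2.62%, 4.52% and 2.88%, and the mean differences were -1.61 points on SCD (-2.54 to -0.563 over the draws) and -1.64 on HFD (-2.74 to -0.626). Within cluster 11 the mean difference on HFD was -0.405 points (-1.76 to 1.18 over the draws). In the first draw these cells, 2.94% to 4.48% of the class, held 21.1%, 10.9%, 29.7% and 15.3% of all member UMIs. They were picked for their member UMIs, so part of that follows from the choice. In endothelial-like cells the share of cells with 3 or more members was 96.9%, 92.1%, 97.9% and 97.9%, and in δ-like cells 17.2% to 20.9%.

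The 1% of β-like cells with the highest member CPM held 15.4%, 8.28%, 20% and 11.8% of member UMIs. These cells were picked by the level of the same members, so part of that follows from the choice. With them left out, the ratios of HH over WT were -0.21 on SCD and -0.17 on HFD. Then 10 and 17 members were lower, against 17 and 22, but the share of all genes lower in the remaining cells is not given here. The cells left out held 89%, 73.1%, 90.2% and 84.5% of the UMIs of Ifit3, which itself entered the choice. They held 2.41% to 4.02% of those of Lgals3bp, which entered it too. Without them Cxcl10 on HFD turned to 0.61 and Rsad2 on SCD to 0.16.

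In the cells with 3 or more members, genes outside the list were ranked by their smallest rise in any of the 4 libraries. In order the first were Gm26797, Trim12c, Gm12216, Ube2l6, Paqr8, Nhsl2 and Samd9l, all from few UMIs, and 2 of them known from the interferon response are given with values, a choice made after these were seen. Samd9l, an antiviral restriction factor, was at 18.5, 21.5, 39.7 and 28.8 CPM, against 4.86, 4.58, 6.17 and 5.6 CPM in the remaining β-like cells. Ube2l6, the gene of the conjugating enzyme of ISG15, read 14.8, 10.8, 39.7 and 37 CPM, against 2.78, 1.76, 0.617 and 1.12 CPM. These values rest on 4 to 7 UMIs of Samd9l and 2 to 9 of Ube2l6 per library in the cells with 3 or more members. A list of 15 genes of MHC class I presentation read 667, 683, 1349 and 1263 CPM in these cells, against 470, 439, 538 and 492 CPM. The 8 endothelial markers were at 7.41, 10.8, 0 and 770 CPM, against 6.77, 7.05, 6.17 and 18.5 CPM, so HH HFD stood apart. The δ markers were at 81.5, 462, 111 and 654 CPM, against 91.5, 75.2, 88.9 and 122 CPM, and the alpha markers at 415, 710, 413 and 1132 CPM, against 566, 608, 427 and 779 CPM. These values too move with the draw: over 100 draws, as CPM of unthinned UMIs, the δ markers in such cells ranged from 61.9 to 367 in WT SCD, 57.9 to 1271 in HH SCD, 59.1 to 179 in WT HFD and 324 to 780 in HH HFD. Their means were 239, 838, 94.6 and 392, against 72.1, 70, 79 and 112 in the remaining cells, and those of the alpha markers were 499, 1083, 373 and 2020, against 517, 588, 393 and 696. The part of these other cell types in the values of the cells with 3 or more members was not tested. In HH HFD 28 β-like cells had 3 or more endothelial marker UMIs, against 4, 2 and 2 in the other libraries. Of the 28, 10 had 3 or more members in the first draw, against 0 of such cells in each other library. Among the remaining β-like cells of HH HFD the share with 3 or more members was 2.6%. Without β-like cells with such endothelial UMIs the summed ratios were -0.32 and -0.33. Then 17 and 24 members were lower, without the share of all genes in the same cells beside them.

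**Figure D4:**
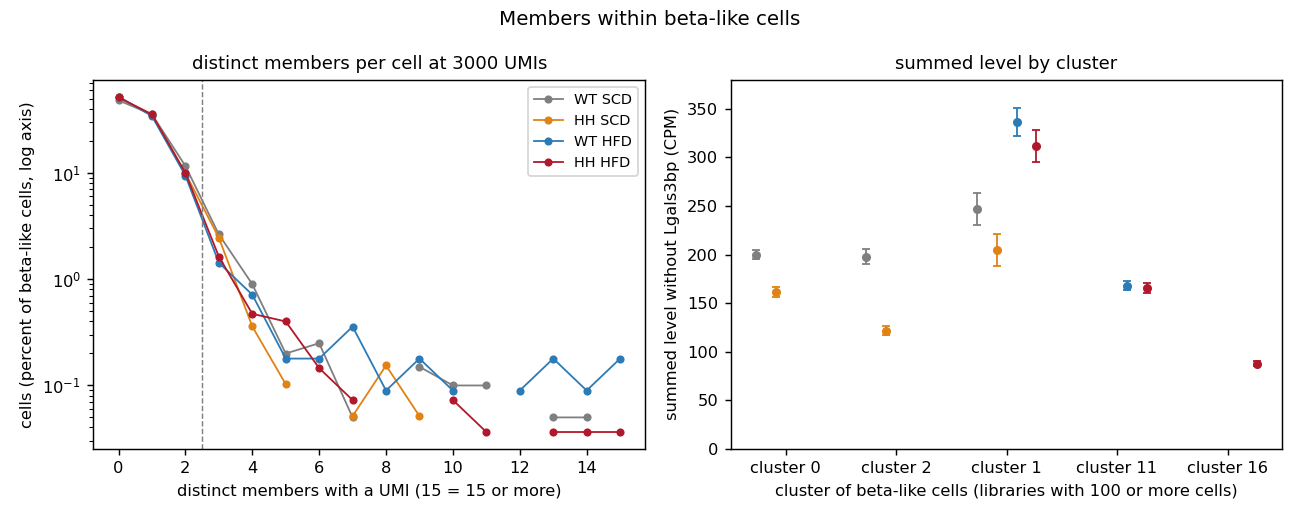
Left, percent of β-like cells (log axis) by the number of distinct members with a UMI after thinning to 3000 UMIs. Right, summed CPM without Lgals3bp by cluster of β-like cells and library, with Poisson 95% intervals, for libraries with at least 100 cells in the cluster: on SCD HH lies below WT in clusters 0 and 2, both HFD libraries overlap in cluster 11, and cluster 16 of HH HFD is lowest.

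The rest of the pathway was read from lists of other genes in β-like cells, with the same background shares as above. Of 12 receptor and signalling genes, 11 had enough UMIs on SCD, and 0 passed 1.5-fold. Of 7 genes that induce interferon, such as those of the TLR and MAVS routes, 0 passed in either diet. Of 14 genes of MHC class I presentation, 0 passed on SCD and 4 were lower on HFD, the immunoproteasome genes Psmb8 and Psmb9 and the class I genes H2-Q4 and H2-Q6. Of 37 other interferon-stimulated genes, 16 had enough UMIs on SCD, of which Ifitm3 was lower. On HFD 21 had enough, of which Ifi27l2a, Gbp6, Parp9 and Oas1g were lower and Ifi203, Ifitm3 and Slfn5 were higher.

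Diet was compared within each genotype. In β-like cells the summed ratio of HFD over SCD was 0.07 (0.04 to 0.11) in WT and 0.09 (0.06 to 0.12) in HH. Without Lgals3bp it was 0.0037 in WT and turned to -0.14 (-0.18 to -0.10) in HH, and without Lgals3bp and Irf1 it was 0.24 (0.19 to 0.28) in WT and 0.06 (0.02 to 0.11) in HH, so the value rests on these 2 genes. Single members moved both ways. In WT 11 of 33 were higher on HFD, against 5.53% of genes, and 1 was lower, against 7.68%. In HH 9 of 35 were higher, against 8.51%, and 4 were lower, against 10.2%. Bst2, Gbp3, Ifi44, Ifit3, Ifit3b, Isg15 and Oas2 were higher in both genotypes. No share of all genes is given for both genotypes together. Irf1 was the only member lower in both, by log2 ratios of -1.79 (-1.95 to -1.63) in WT and -1.74 (-1.89 to -1.60) in HH. Most SCD and most HFD cells lay in different clusters. Within cluster 1, the one with many cells of all libraries, the level went from 391 CPM on SCD to 456 on HFD in WT (0.22) and from 340 to 464 in HH (0.45), larger ratios than over the whole class.

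Alpha-like and δ-like cells had fewer members past the fold, at fewer cells and UMIs. In alpha-like cells HH over WT was -0.06 (-0.14 to 0.01) on SCD and -0.10 (-0.18 to -0.02) on HFD. On SCD 0 of 21 members were lower, against 4.24% of genes, and 1, Cmpk2, was higher, against 3.27%. On HFD 5 of 21 were lower, Ifit1, Irf7, Rsad2, Rtp4 and Xaf1, against 4.18%, and 1, Irgm2, was higher, against 3.91%. Irf7 on SCD, for example, had 26 and 22 UMIs, a ratio of -0.31 (-1.20 to 0.57), an interval wide enough to hold the -0.97 of β-like cells. Deeper members were read more narrowly. Bst2, at 64 and 63 UMIs on SCD, had -0.09 (-0.62 to 0.43), and Cxcl10, at 139 and 110 UMIs, had -0.41 (-0.78 to -0.04), beside -1.07 and -1.58 in β-like cells. The interval of the alpha-like sum on SCD likewise does not reach the -0.33 of β-like cells, though the difference between the classes was not tested.

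In δ-like cells the ratio was 0.14 (0.06 to 0.23) on SCD and -0.01 (-0.11 to 0.10) on HFD. On SCD 3 of 27 members were higher, Irgm1, Gbp7 and Cxcl10, against 3.83%, and 2 were lower, Isg15 and Irf7, against 4.96%. On HFD 1 of 24 was higher, Stat2, against 4.51%, and 4 were lower, Isg15, Rsad2, Cxcl10 and Xaf1, against 6.48%. Isg15 had 30, 15, 16 and 11 UMIs in these cells, with HH below WT in both diets but intervals that reached past 0 (-1.91 to 0.03 and -2.11 to 0.34).

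Endothelial-like cells carried the response broadly, with a summed ratio of HH over WT of -0.47 (-0.55 to -0.39) on SCD and 0.14 (0.09 to 0.20) on HFD. The sign on HFD rests on few cells and on the clustering, since the ratio was -0.03 without the 2 highest cells of each library and -0.15 with a finer clustering (Leiden resolution 2). On SCD 13 of 31 members were lower in HH, against 9.25% of genes, and 0 were higher, against 8.9%. At Leiden resolution 2, however, the ratio was -0.25, with 5 lower and 4 higher, and the share of all genes there is not given. Isg15 read 312, 174, 164 and 235 CPM, Irf1 408, 215, 215 and 209 CPM, and Irgm1, a GTPase that regulates autophagy, 192, 93.6, 85.2 and 116 CPM. For these 3 genes WT SCD stood alone as the high library. Bst2 went another way, at 538, 443, 877 and 761 CPM, with both HFD libraries above both SCD libraries.

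On HFD 3 of 36 members were higher in HH, Ifit1, Ifit2 and Cxcl10, against 8.14%, and 1, Ddx60, was lower, against 6.35%. Ifit1 read 114, 39.2, 37.1 and 89.8 CPM, with ratios of -1.54 (-2.26 to -0.88) on SCD and 1.27 (0.76 to 1.81) on HFD. Cxcl10 read 196, 61.3, 3.37 and 187 CPM, from 175, 36, 4 and 237 UMIs, a ratio of 5.79 (4.41 to 7.68) on HFD. In HH HFD, however, 2 of the 192 cells held 88.2% of the Cxcl10 UMIs and 17.4% of all member UMIs. Without the 2 highest cells of each HFD library Cxcl10 read 22.5 CPM in HH and 3.42 CPM in WT (2.71, 1.20 to 4.69).

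Across diets, HH endothelial-like cells had a higher sum on HFD (0.57, 0.50 to 0.65) and WT cells did not (-0.04, -0.10 to 0.02). In HH 18 of 34 members were higher on HFD, against 21.2% of genes, and 0 were lower, against 10.7%. In WT 10 of 35 were higher, against 21.1%, and 10 were lower, against 11.6%. With a finer clustering, 1 cluster of endothelial cells no longer met the naming rule and left the class. It held 101, 73, 1 and 1 cells, most of the SCD endothelial-like cells, while the largest cluster that stayed held 14, 14, 134 and 166. SCD and HFD cells thus lay mostly in different clusters, and without the first the HH ratio became -0.16, so the diet ratio rests on which cells are counted.

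Macrophage-like cells had the highest levels but were few, and their make-up changed with diet. A cluster led by Il1b, Ccl4 and Tnf was present on SCD alone (11, 4, 0 and 0 cells) and a cluster led by C1q genes on HFD alone (0, 0, 42 and 13 cells). The summed ratio of HH over WT was -0.84 (-1.0 to -0.67) on SCD and -0.34 (-0.45 to -0.23) on HFD. On SCD 9 of 13 members were lower, against 21% of genes, and 0 were higher, against 15.5%, and on HFD 17 of 30 were lower, against 14.4%, and 1, Gbp2, was higher, against 17.6%. Isg15 read 1362, 412, 721 and 538 CPM and Ifit1 863, 426, 106 and 33.3 CPM, with HH below WT in both diets. Cxcl10 read 2642, 2241, 991 and 1365 CPM, with ratios of -0.24 (-0.51 to 0.03) on SCD and 0.46 (0.23 to 0.69) on HFD. Under a looser filter on cells the SCD ratio was -0.03, so these values rest on which of the few cells are kept.

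The interferons themselves were found in few cells. Ifnb1, the gene of interferon β, had 248, 198, 82 and 130 UMIs over all barcodes. Of 64, 77, 67 and 49 UMIs in kept cells, macrophage-like cells held 50, 44, 63 and 34, in 8 of 15, 4 of 8, 10 of 48 and 8 of 21 cells. β-like cells held 0, 2, 0 and 0. Ifng, the gene of the type II interferon, had 2, 10, 89 and 27 UMIs, and in WT HFD 11 of 40 T or NK-like cells held 21 of them. The remaining interferon genes on the list had at most 2 UMIs in a library.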

How the data were processed

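Single-cell RNA-seq was run on pooled islets of 4 groups, 1 library each. The authors deposited UMI counts per gene and barcode made with Cell Ranger 6.0 (mm10, per the labels' processing notes), and the deposited gene and barcode files carry names, not a measured value. These counts were filtered to 3000 to 50000 UMIs, 2000 to 5000 genes and under 10% mitochondrial UMIs. Scrublet scores were ranked and the top cells removed at 0.8% per 1000 cells, since the automatic threshold marked as few as 0.16% of cells. Cells were clustered in scanpy 1.11.5 (3000 variable genes, 30 components, 20 neighbours, Leiden resolution 1, seed 1), and a cluster took a class name from at least 3 markers. The members and lists were chosen with earlier results of these data known. Members with at least 20 UMIs over both libraries are named by role. The HFD count of the list of receptor and signalling genes is not reported here. UMIs were summed per class, given Poisson intervals, and compared as log2 ratios with exact conditional intervals. In simulated counts for β-like cells, 99% of genes changed by 1 on the log2 scale passed 1.5-fold on SCD and 94.9% on HFD, and 2.93% and 3.4% of unchanged genes did. The simulation held counting error only, without variation between cells, mice or libraries. Its shares are therefore not error rates for the real libraries.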

Additional observations from a re-analysis of the deposited data

Results flagged for a closer look

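With 1 library per group, some members were higher in HH on one diet and lower on the other with both counting intervals clear of 0, and whether the 2 diets differ was not tested. The share of all genes that changed direction in this way is not given here, so no excess among the members is shown. In β-like cells Iigp1, a GTPase, had log2 ratios of HH over WT of 1.3 on SCD and -1.55 on HFD, the latter turning to 0.44 without the 1% of cells with the highest member level. In δ-like cells Irf1 had 0.339 and -0.564 and Cxcl10 0.704 and -0.906.

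In endothelial-like cells the summed ratio was -0.467 on SCD and 0.144 on HFD, but on HFD it was -0.03 without the 2 highest cells of each library and -0.15 at Leiden resolution 2. By gene the SCD and HFD ratios were -1.54 and 1.27 for Ifit1, -0.845 and 0.525 for Isg15, and -0.605 and 0.584 for Iigp1. They were -1.04 and 0.443 for Irgm1, -0.772 and 0.403 for Gbp2, and -0.496 and 0.341 for Rtp4. Cxcl10 had -1.67 and 5.79, the latter from 2 cells of HH HFD for 88.2% of its UMIs.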

How the results depend on the processing

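No paired analysis was possible because each group is 1 library and the labels carry no replicate numbers. The lower summed level of HH over WT in β-like cells kept its sign on SCD under each alternative. On HFD it did not within clusters 11 and 1, an alternative chosen after seeing the data. The HFD ratio turned to 0.015 in cluster 11, the shared cluster with the most cells, and to 0.03 in cluster 1. In cluster 16 HH HFD stayed lower, at 202 CPM against 359 in the 26 cells of WT HFD. In clusters 0 and 2, each with few HFD cells, HH HFD was higher. Cluster 11 had 3 members lower, 3 higher and a share difference of 0.737 points, which was -0.405 as the mean of 100 thinning draws. Other share differences after thinning are from single draws. The SCD ratio was -0.24 in cluster 0, and HFD over SCD in cluster 1, with 7.22% to 19.1% of the β-like cells of each library, was 0.22 in WT and 0.45 in HH. Where not stated otherwise below, log2 ratios are sums of HH over WT and the cause of a change was not tested. Member counts below are given without the share of all genes under the same setting, so they show no excess over that share.

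Leaving hormone and mitochondrial genes out of the totals gave -0.27 in β-like cells on SCD. It gave 2.56, 2.34, 2.39 and 2.81 for endothelial-like over β-like cells and 3.68, 3.12, 2.89 and 2.85 for macrophage-like over β-like cells. Median-of-ratios scaling gave -0.23 and -0.17 in β-like cells on SCD and HFD. For HFD over SCD it gave 0.14 in HH β-like cells, and -0.19 (WT) and 0.45 (HH) in endothelial-like cells. Equal weight per cell gave -0.25 in β-like and 0.051 in endothelial-like cells on HFD, and 0.44 for HFD over SCD in HH endothelial-like cells.

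Without the 1% of cells with the highest member level, β-like ratios were -0.21 and -0.17, HFD over SCD there was -0.0074 in WT and 0.032 in HH, and the macrophage-like ratio on SCD was -1.14. Endothelial-like ratios were -0.035 on HFD and 0.39 for HFD over SCD in HH. On SCD 10 members were lower and 1 higher in β-like, 2 higher in alpha-like and 0 lower in δ-like cells, and on HFD 2 were lower in alpha-like and 2 in endothelial-like cells.

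Without the most abundant member of each class, β-like ratios were -0.47 and -0.61, with HFD over SCD at 0.0037 in WT and turning to -0.14 in HH. On HFD the ratio was -0.22 in alpha-like, -0.16 in δ-like, 0.22 in endothelial-like and -0.57 in macrophage-like cells, and on SCD -1.14 in macrophage-like cells. HFD over SCD was -0.24 in HH δ-like and -0.18 in WT endothelial-like cells.

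A looser filter on cells gave -0.034 and -0.61 in macrophage-like cells on SCD and HFD, 0.039 in endothelial-like cells on HFD, and HFD over SCD of 0.013 in WT β-like and 0.49 in HH endothelial-like cells. Class ratios over β-like cells were 3.83, 3.70 and 4.13 (endothelial-like, WT SCD, HH SCD and HH HFD) and 4.83, 5.13 and 4.00 (macrophage-like, the same libraries). On HFD 0 members were higher in β-like and 0 in alpha-like cells, 2 higher and 7 lower in δ-like, 0 lower in endothelial-like cells, and 2 were higher in alpha-like cells on SCD. The share difference on HFD was -2.46 points.

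Leiden resolution 2 changed mainly endothelial-like cells, to -0.25 on SCD and -0.15 on HFD, and for HFD over SCD to -0.26 in WT and -0.16 in HH. Over β-like cells they stood at 4.19, 4.27 and 4.02 in WT SCD, HH SCD and HH HFD. On SCD 4 members were higher and 5 lower there, on HFD 2 were lower with a share difference of -4.12 points, while 0 were higher in β-like cells on HFD and 2 in alpha-like cells on SCD.

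With at least 50 UMIs, 1 member was higher in β-like cells on SCD and 0 on HFD. On HFD 0 were higher and 3 lower in alpha-like, 0 higher and 1 lower in δ-like, and 0 lower in endothelial-like cells, and 1 was lower in δ-like cells on SCD. At 2-fold, 8 and 12 members were lower in β-like cells on SCD and HFD, 3 in endothelial-like cells on SCD, 2 in alpha-like cells on HFD and 0 in δ-like cells on either diet, while 0 were higher in alpha-like cells on either diet and 0 in δ-like cells on HFD. The shares of all genes given above are for 1.5-fold and do not apply to these counts. Keeping predicted doublets left 0 higher in β-like cells on HFD, 2 in alpha-like cells on SCD and 2 in δ-like cells on HFD. Subtracting an ambient profile left 0 higher in β-like cells on HFD, as did leaving out β-like cells with endothelial marker UMIs, chosen after seeing the data.

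The HH minus WT share of β-like cells was -3.02 points on SCD with 2 or more members, -7.1 and -16.0 on SCD and HFD without thinning, and -2.4 on HFD at 5000 UMIs. With 5 or more members it was -13.7 and -6.09 in endothelial-like cells. Few macrophage-like cells and few UMIs per member limit the precision outside β-like cells.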
